A study of Homo sapiens with 6 samples.

Results

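The SLC16 genes encode the monocarboxylate transporter family, and 10 of them are described here in PaTu8988t cells with and without SAMD1. The members were taken by gene symbol from a table of 20347 genes: *SLC16A1*, *SLC16A3*, *SLC16A4*, *SLC16A5*, *SLC16A6*, *SLC16A7*, *SLC16A9*, *SLC16A10*, *SLC16A13* and *SLC16A14*. All 10 were found and all 10 passed the filter for testing, which asked for a mean of 10 or more normalized counts. *SLC16A14* was picked because it was one of the largest rises upon SAMD1 deletion, so its rise is given as a description with no test. The other 9 were listed for their family name.

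PaTu8988t is an established human PDAC (pancreatic ductal adenocarcinoma) cell line, and SAMD1 is a repressor that binds CpG islands. RNA-seq was made from 3 replicates of control PaTu8988t cells, which received an unspecific guide RNA, and from 3 SAMD1 KO cell clones made with CRISPR/Cas9 and guide RNAs against *SAMD1*. Each KO library is an independent clone selected from a single cell, while the sources do not say whether the control replicates were clonal, so clone selection and loss of SAMD1 cannot be told apart where a clone differs. The growth protocol was shared by all libraries (DMEM with high glucose and fetal bovine serum), no further treatment is given, and the libraries held from 35589477 to 45172216 reads.

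SLC16 proteins sit in the plasma membrane. The best known members carry lactate, pyruvate and ketone bodies together with a proton, which lets a glycolytic tumor cell export lactate or another cell take it up, and they need a chaperone such as basigin to reach the surface. Other members carry aromatic amino acids, carnitine or creatine, and for several, *SLC16A14* among them, the physiological substrate is less well established.

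*SAMD1* itself was measured at 2231, 2382, and 2299 normalized counts in control cells and at 874, 1082, and 825 in the KO clones, where a normalized count is a read count divided by a size factor for its library. The targeted transcript was lower in each KO clone without being absent (log2 fold change −1.32, limma adjusted p = 0.000724). The epithelial markers *KRT8*, *KRT18* and *EPCAM* were detected in every library, whereas *KRT19* was listed at 0 in all 6, and *KRT7* was low, at 26.4 to 34.3 normalized counts in control and 78.1 to 90.7 in KO cells. Of the 5 epithelial markers 4 were tested, and *KRT7* and *KRT18* passed as higher in KO cells by the cut-off given below. Of all tested genes 5.77% passed as higher. *KRT18* passed narrowly (log2 fold change 0.52, limma adjusted p = 0.0598). *KRT8* (0.37) and *EPCAM* (−0.065) did not pass. The summed level of the list was 62681 to 65891 in control and 67617 to 108553 in KO cells. Markers of other cell types were low throughout. The 4 acinar markers had no reads, 4 immune markers summed to at most 34.2 normalized counts in a library, 4 fibroblast markers summed to 52.8 to 55.0 in control and 18.0 to 44.9 in KO cells, and 3 endothelial markers to 77.8 to 84.8 in control and 33.6 to 83.6 in KO cells. The part of these markers in the results was not tested.

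To show the promoter side of the family, the 250 bases before the annotated start are given for 3 members, since SAMD1 binds CpG islands and prefers a GCGC motif. The RefSeq windows on GRCh38.p14 covered 6 of the 10 members, namely *SLC16A3*, *SLC16A4*, *SLC16A7*, *SLC16A9*, *SLC16A10* and *SLC16A14*. *SLC16A14* (chr2:230068925-230069174, minus strand) is the gene with the large rise, *SLC16A4* (chr1:110391027-110391276, minus strand) is a CpG-poor and weakly expressed member, and *SLC16A10* (chr6:111087253-111087502, plus strand) is a CpG-rich member. Sequences run 5′ to 3′ and end at the base before the RefSeq start, with each GCGC in capitals.
SLC16A14: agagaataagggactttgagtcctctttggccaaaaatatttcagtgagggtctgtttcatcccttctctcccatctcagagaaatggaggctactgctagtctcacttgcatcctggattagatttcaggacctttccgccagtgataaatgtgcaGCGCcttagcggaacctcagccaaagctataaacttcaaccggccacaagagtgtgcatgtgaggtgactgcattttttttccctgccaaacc
SLC16A4: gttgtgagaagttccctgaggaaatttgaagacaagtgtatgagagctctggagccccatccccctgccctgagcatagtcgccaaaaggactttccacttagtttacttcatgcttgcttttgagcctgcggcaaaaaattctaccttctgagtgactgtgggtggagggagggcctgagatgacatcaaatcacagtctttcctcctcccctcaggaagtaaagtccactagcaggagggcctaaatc
SLC16A10: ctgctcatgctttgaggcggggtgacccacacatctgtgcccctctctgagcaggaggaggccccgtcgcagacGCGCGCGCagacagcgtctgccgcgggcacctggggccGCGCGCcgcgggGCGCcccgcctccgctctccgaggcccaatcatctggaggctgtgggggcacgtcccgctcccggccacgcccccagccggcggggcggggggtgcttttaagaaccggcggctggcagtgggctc
The *SLC16A14* window held 1 GCGC and 4 CG dinucleotides. That is a small number of CG, reached or exceeded by 70.7% of all 35116 windows of this length, whose median was 11. The *SLC16A4* window had 0 GCGC and 2 CG, while the *SLC16A10* window had 6 GCGC, counted with overlaps, and 28 CG. GCGC reads the same on both strands, and 53.4% of all windows held at least 1. Across the 6 members, 8 of 12 windows held a GCGC, with up to 9 in one of the 5 windows of *SLC16A3*. These counts describe the letters of the windows, and binding of SAMD1 was not analysed here.

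The strongest change of the family was in *SLC16A14* (ENSG00000163053.11, chromosome 2, 230034982 to 230068993 on GRCh38, minus strand, 5 exons in its canonical transcript). It had 51.5, 61.6, and 51.5 normalized counts in the control replicates and 420.3, 557, and 581 in KO clones 1 to 3. Every clone was far above every control replicate, and clone 1 was the lowest of the clones. In whole reads these values were 45, 63, and 45 against 425, 645, and 646. The mean was 54.9 ± 5.85 in control and 519.5 ± 86.8 in KO cells (SD, n = 3 each), a 9.47-fold difference or 3.21 on the log2(normalized count + 1) scale (standard error 0.16). In bulk RNA, a rise in a few cells and a rise in every cell cannot be told apart.
These values chose the gene and support nothing further. Among genes that passed as higher and averaged 50 or more normalized counts, it ranked 3 by log2 fold change, behind *PCDH7* at 3.62 and *GUCY1A1* at 3.33 and just ahead of *BMP2* at 2.89. The spread is also given as a description, since this ranking was among genes that passed, and a small spread favors passing. The clones differed by 1.38-fold between the highest and the lowest, and the SD of their log2 values was 0.25, about as large as the median of 0.26 over the 10 members. In control cells the SD was 0.15, below the 0.20 that counting noise alone gives at 45 to 63 reads.

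**Figure D1:**
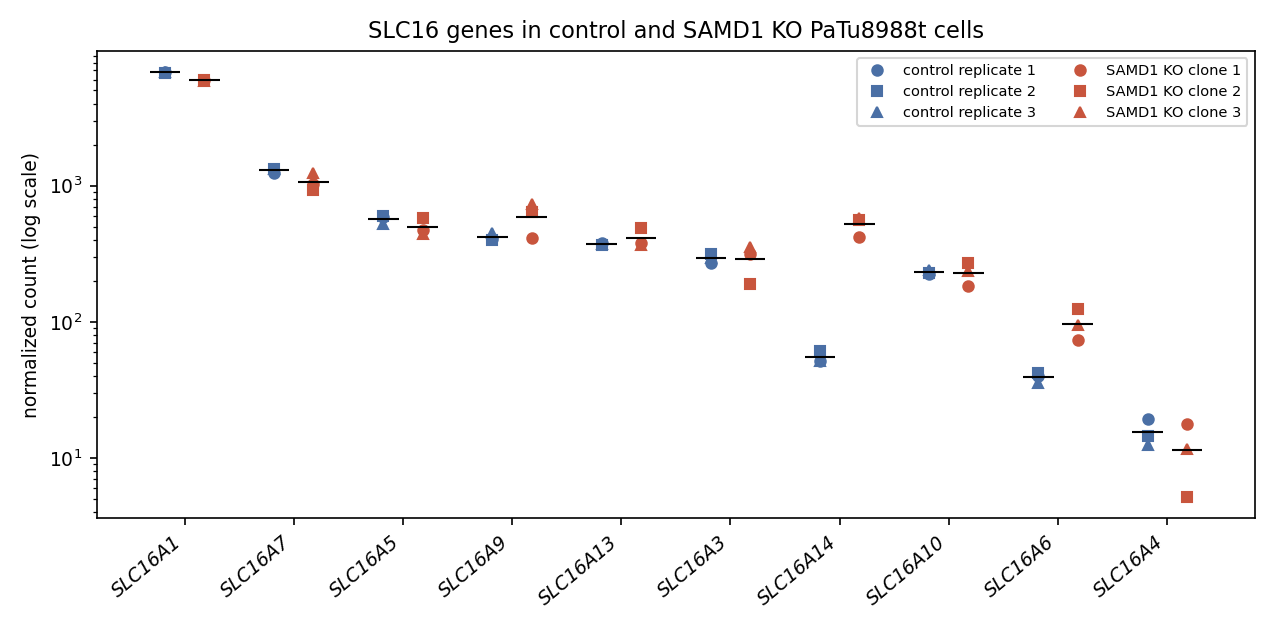
Normalized counts (log axis) of the 10 SLC16 genes, ordered by mean, in 3 control replicates (blue) and 3 SAMD1 KO clones (red), with a black line at each group mean. *SLC16A14* moves from 54.9 to 519.5 normalized counts, while *SLC16A1* stays the most abundant at 6789 and 5927.

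Apart from *SLC16A14*, 1 of the 9 members passed as higher in KO cells and 0 passed as lower. To pass, a gene needed a log2 change beyond 0.5 up or down together with an unadjusted p below 0.01 in limma. Of all 12773 tested genes, 5.77% passed as higher and 2.08% as lower, or 7.85% in either direction. At an unadjusted p below 0.05, 2 of the 9 members were lower by limma, as by edgeR and DESeq2. At the same p, 1 was higher by limma and 2 by edgeR and by DESeq2, with *SLC16A9* as the added member. Each of these tools also gave 1 higher and 0 lower by the full cut-off. The share of all tested genes with an unadjusted p below 0.05 is not given here, so counts at 0.05 are a description. Of the 9, 3 had a positive and 6 a negative log2 fold change, with a median of −0.074 against −0.0059 over all tested genes, and a median absolute change of 0.21 against 0.15. Control and KO values were fully separate in 1 member that was higher and 2 that were lower, and 19.2% of all tested genes were separate with KO higher, 18.6% with KO lower and 37.8% either way. With 3 libraries on each side, the smallest p of an exact permutation test is 0.1.

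**Figure D2:**
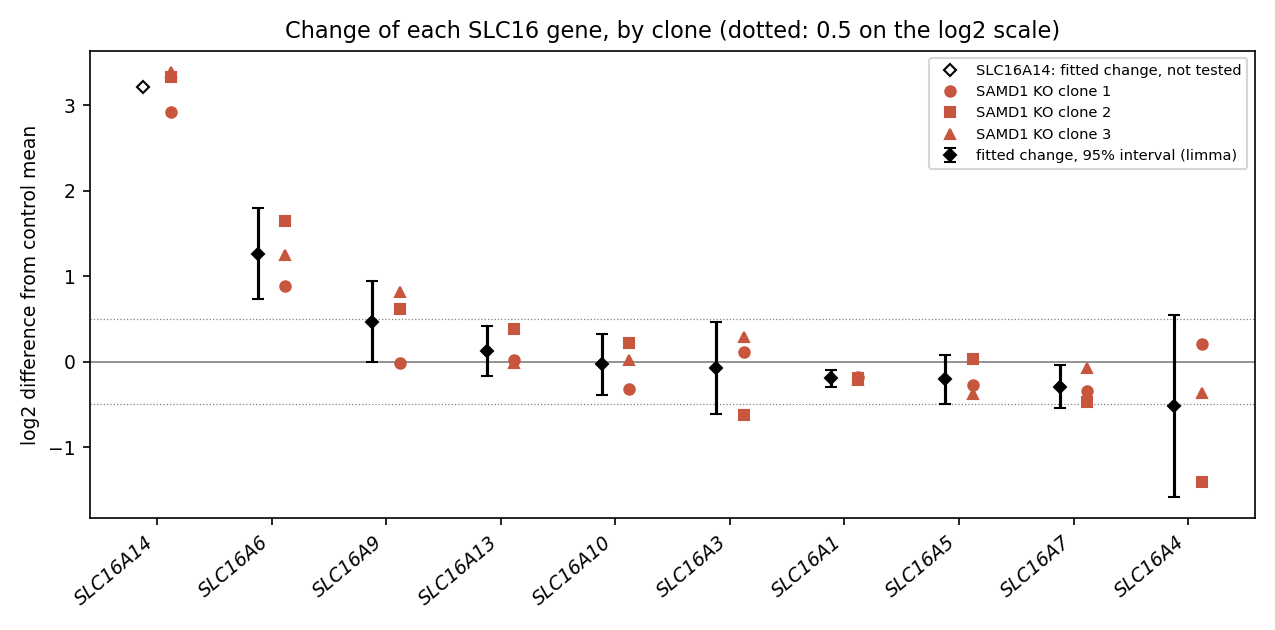
Log2 difference from the control mean for each SAMD1 KO clone (red) and the fitted change with its 95% interval (black), with *SLC16A14* left untested (open diamond). *SLC16A6* is the member whose whole interval, 0.73 to 1.79, lies above 0.5.

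The member that passed was *SLC16A6* (ENSG00000108932.13, chromosome 17, 68267026 to 68291267, minus strand), whose product has been linked to ketone body transport in liver. It had 40.04, 42.1, and 35.5 normalized counts in the control replicates and 73.2, 124, and 94.4 in KO clones 1 to 3. All clones were above all control replicates, with clone 2 the highest and clone 1 the lowest. The mean rose from 39.2 ± 3.36 to 97.3 ± 25.7 (SD, n = 3 each), a 2.48-fold difference and a log2 fold change of 1.26 (standard error 0.23, 95% interval 0.73 to 1.79, limma adjusted p = 0.0138). In fits that dropped 1 library it passed in 6 of 6 cases, with a log2 fold change of 1.07 to 1.45, although the adjusted p was below 0.05 in 3 of them and reached 0.0729.
The whole of *SLC16A6* lies inside *ARSG*, a gene of a lysosomal sulfatase on the opposite strand, which was looked at after the values were seen. *ARSG* had 129, 98.8, and 110.0 normalized counts in control and 154, 211, and 198 in KO clones 1 to 3, and it passed as well (log2 fold change 0.73, standard error 0.17, limma adjusted p = 0.0353), although in only 2 of the 6 fits that dropped a library. The order of the clones was the same in both genes. The libraries were made with a stranded kit, but the strand setting of the counting is not given in the sources used here, so reads of the 2 genes cannot be told apart with certainty. Among the 20 nearest tested genes of *SLC16A6* the median log2 difference was 0.14, 0.14, and 0.13 in the clones, and with such regional medians removed *SLC16A6* still passed, at a log2 fold change of 1.12.

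*SLC16A1* (ENSG00000155380.13, chromosome 1, 112911847 to 112957593, minus strand) encodes the widely expressed proton-linked lactate transporter MCT1 and was the most abundant member. It had 6819, 6738, and 6810 normalized counts in control and 5977, 5956, and 5846 in the KO clones. The groups did not overlap, and the 3 clones were within 1.02-fold of each other. The mean was 6789 ± 43.99 in control and 5927 ± 70.2 in KO cells (SD, n = 3 each), 0.87 of the control level. The log2 fold change of −0.20 (standard error 0.044, 95% interval −0.30 to −0.092, limma adjusted p = 0.0300) was smaller than the 0.5 of the cut-off, so the gene did not pass. Without any 1 library the value stayed between −0.20 and −0.19, with an adjusted p below 0.05 in 3 of 6 fits.

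*SLC16A3* (ENSG00000141526.18, chromosome 17, 82217934 to 82261129, plus strand) encodes MCT4, the lactate exporter of glycolytic cells. It had 270.0, 316, and 292 normalized counts in control and 315, 190.1, and 356 in KO clones 1 to 3. Clone 2 was below and clone 3 above every control replicate, and the clones spanned 1.87-fold. The log2 fold change was −0.074 (95% interval −0.61 to 0.46, limma adjusted p = 0.8605), which leaves room for a change in either direction, and without clone 2 it was 0.20. Part of its extent overlaps *CSNK1D* on the other strand, which had about 5444 normalized counts on average and a log2 fold change of 0.039.
*SLC16A7* (ENSG00000118596.12, chromosome 12, 59596029 to 59789855, plus strand) encodes MCT2, a high-affinity transporter of pyruvate and lactate. Its normalized counts were 1239, 1329, and 1326 in control and 1026, 935, and 1238 in the KO clones. The groups were separate only by a narrow margin, since clone 3 lay just below the lowest control replicate. Its log2 fold change of −0.29 (95% interval −0.54 to −0.041, limma adjusted p = 0.121) did not pass. Without clone 3 the log2 fold change was −0.40, still under the cut-off, with a limma adjusted p of 0.0166.

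*SLC16A9* (ENSG00000165449.12, chromosome 10, 59650764 to 59736002, minus strand) has been described as a carnitine efflux transporter. It had 406, 398, and 446 normalized counts in control and 411, 636, and 733 in KO clones 1 to 3. Clone 1 lay within the control range and clones 2 and 3 above it. The log2 fold change of 0.47 (standard error 0.20, 95% interval −0.0054 to 0.945, limma adjusted p = 0.173) did not pass. Without clone 1 it was 0.71 and passed (limma adjusted p = 0.00669), so the call of this member rests on 1 clone. With all libraries, the log2 fold change was 0.52 by edgeR (unadjusted p = 0.0359) and 0.51 by DESeq2 (unadjusted p = 0.0159). *SLC16A9* did not pass by these tools either. The spread among the clones, 0.43 on the log2 scale, was far above the counting noise of 0.056.
*SLC16A5* (ENSG00000170190.16, chromosome 17, 75087727 to 75106162, plus strand), which encodes MCT6, had 593, 597, and 526 normalized counts in control and 472, 583, and 440 in the KO clones. Clone 2 lay within the control range and the others below it. Its log2 fold change was −0.21 (95% interval −0.50 to 0.084, limma adjusted p = 0.308).
*SLC16A10* (ENSG00000112394.18, chromosome 6, 111087503 to 111231194, plus strand) encodes TAT1, an aromatic amino acid transporter. It had 224, 229, and 242 normalized counts in control and 185, 269, and 236 in the KO clones, so clone 1 lay below and clone 2 above the controls. The log2 fold change was −0.028 (95% interval −0.38 to 0.33, limma adjusted p = 0.925). Its 20 nearest tested genes had median log2 differences of −0.24, −0.07, and 0.20 in clones 1 to 3, and the order of the clones in *SLC16A10* was another one.
*SLC16A13* (ENSG00000174327.7, chromosome 17, 7036015 to 7040117, plus strand) had 381, 366, and 372 normalized counts in control and 377, 486, and 368 in the KO clones, with only clone 2 above the controls. Its log2 fold change was 0.13 (95% interval −0.17 to 0.42, limma adjusted p = 0.545).
*SLC16A4* (ENSG00000168679.18, chromosome 1, 110362851 to 110391082, minus strand) was the weakest member, with 19.4, 14.7, and 12.6 normalized counts in control and 17.8, 5.18, and 11.7 in the KO clones. The groups overlapped, and 6 to 18 reads in a library leave a wide interval of −1.58 to 0.54 around its log2 fold change of −0.52 (limma adjusted p = 0.484). An antisense transcript, *LAMTOR5-AS1*, covers the whole of the gene on the other strand. For the members that did not pass, a p above the threshold does not show equal levels.

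The clones varied more than the control replicates in 10 of 10 members, as did 82.8% of all tested genes. Over the members, the median SD of the log2 values was 0.094 in control and 0.26 in KO cells, against 0.059 and 0.15 over all tested genes. *SLC16A4* varied most among the clones, with an SD of 0.81 where counting noise alone gives 0.41, followed by *SLC16A3* with 0.48. *SLC16A1* varied least, with 0.017, the same as its counting noise of 0.018. Clone 2 was the lowest clone for *SLC16A3*, *SLC16A4* and *SLC16A7*, and the highest for *SLC16A5*, *SLC16A6*, *SLC16A10* and *SLC16A13*.

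To compare members with each other, normalized counts were divided by the length of the canonical transcript in kb. In control cells *SLC16A1* stood at 1809 ± 11.7 per kb (SD, n = 3), followed by *SLC16A5* at 295 ± 20.5 and *SLC16A13* at 207 ± 4.17. Next came *SLC16A3* at 113, *SLC16A7* at 109 and *SLC16A9* at 106 per kb, whose ranges overlapped. *SLC16A10* at 21.5, *SLC16A14* at 12.7, *SLC16A6* at 10.6 and *SLC16A4* at 6.07 per kb closed the order, with separate ranges.
In KO cells *SLC16A1* was again first, at 1579 ± 18.7 per kb, and *SLC16A5* and *SLC16A13* overlapped at 257 ± 38.8 and 227 ± 36.6. *SLC16A14* moved from place 8 to place 5 of 10, at 120.4 ± 20.1 per kb, with a range that overlapped those of *SLC16A9* above it (150.4 ± 41.8) and *SLC16A3* below it (110.5 ± 33.3). *SLC16A6*, at 26.4 ± 6.97, overlapped with *SLC16A10* at 21.4 ± 3.92.
Summed over the 10 members, the level was 2677 to 2695 per kb in the control replicates and 2498 to 2660 in the KO clones, lower in each clone than in each control replicate. *SLC16A1* made up 67.3% ± 0.55 of this sum in control and 61.1% ± 2.31 in KO cells (SD, n = 3 each). *SLC16A14* made up 0.47% ± 0.050 in control and 3.90%, 4.86%, and 5.18% in clones 1 to 3. So after its rise it was still a minor part of the family's RNA.

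**Figure D3:**
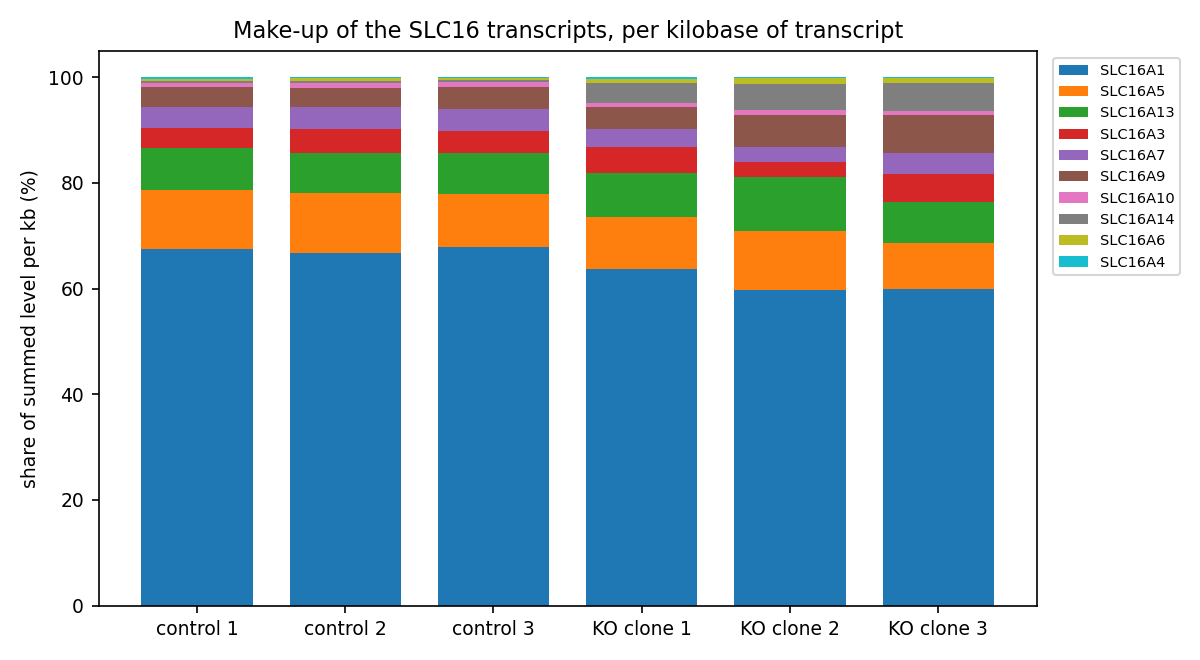
Share of each of the 10 SLC16 genes in their summed level per kilobase of transcript (percent), for 3 control replicates and 3 SAMD1 KO clones. *SLC16A1* fills 67.3% of the control sum on average and 61.1% in KO cells, and the grey *SLC16A14* segment is 0.47% in control and 4.64% in KO cells.

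Further SLC16 genes were too scarce to pass the filter. *SLC16A8* had 3 to 9 reads per library and *SLC16A11* 2 to 7. *SLC16A12*, a creatine transporter gene, had 12, 9, and 5 reads in control and 2, 5, and 2 in the KO clones, too few for a comparison.

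Next, the surroundings of *SLC16A14* were examined. Its direct tested neighbors were *FBXO36*, with 169.8 ± 13.7 normalized counts in control and 239.9 ± 48.5 in KO cells (log2 fold change 0.48, limma adjusted p = 0.119), and *SP110*, with 559 ± 5.30 and 671 ± 44.9 (0.26, adjusted p = 0.0748). Neither passed. Of the 20 nearest tested genes, 2 passed as higher and 1 as lower, and 17 had a positive log2 fold change. Over all tested genes 5.77% passed as higher, 2.08% passed as lower and 48.8% had a positive log2 fold change. The 20 genes are neighbors measured in the same libraries, and their counts are a description. Those that passed were *PID1* (1.33) on one side and *C2orf72* (1.15) on the other, both higher, and *ITM2C* (−0.63), which was lower. The median log2 difference of the 20 genes was 0.13 in clone 1, 0.11 in clone 2 and 0.34 in clone 3. After removal of these medians the log2 fold change of *SLC16A14* was 3.02.

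**Figure D4:**
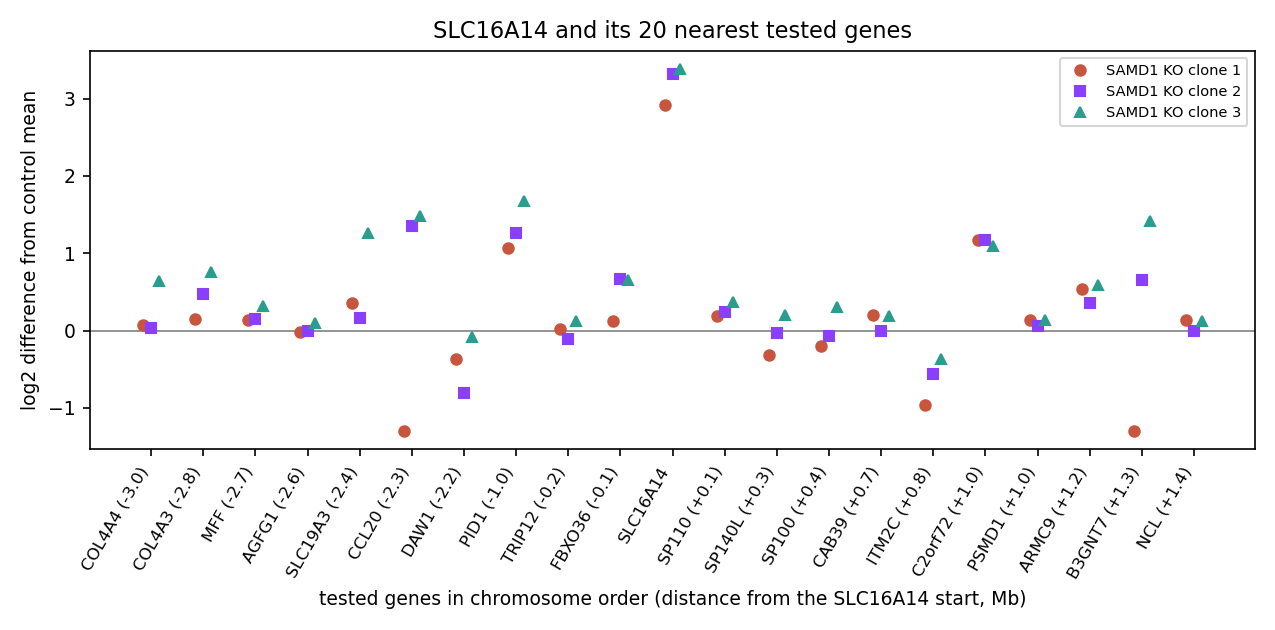
Log2 difference from the control mean in each SAMD1 KO clone for *SLC16A14* and its 20 nearest tested genes in chromosome order, with the distance of each gene's midpoint from the *SLC16A14* start in Mb. *SLC16A14* stands at 2.92 to 3.39, while its direct neighbors lie between 0.12 and 0.66.

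The pattern of *SLC16A14* was compared with those of 11452 tested genes with a mean of 50 or more normalized counts. The measure was Pearson's r of the log2 values over the 6 libraries. The 5 genes most like it were *ATP9A* (r = 0.999), *PGAP1* (0.998), *COLGALT2* (0.998), *CNTNAP1* (0.998) and *ADGRL2* (0.998). With 3 libraries high and 3 low such values are common, and 518 genes had an r above 0.95. *SLC16A6* had an r of 0.96 and *SLC16A1* of −0.997, while *SLC16A10* had −0.0090. The changes of the 5 genes were smaller than that of *SLC16A14*, with log2 fold changes of 0.65 to 1.75. They share with it that clone 1 was the lowest of the clones, which their choice by r over these same values favors.

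Genes that work with these transporters were read from 8 short lists with 80 genes, of which 60 were tested. Of the 60, 6 passed as higher, 1 passed as lower and 53 did not pass, with 5.77% and 2.08% of all tested genes as the background, and the median log2 fold change was 0.037. Of the 6, 5 had a mean of 10 or more in both groups, and the other, *PPARGC1A*, reached the filter only through the KO clones. Basigin (*BSG*), the chaperone of MCT1 and MCT4, had 29512, 31835, and 30154 normalized counts in control and 26082, 26780, and 27578 in the KO clones. As for *SLC16A1*, the groups did not overlap, and 18.6% of all tested genes were separate with KO lower. The log2 fold change of *BSG* was −0.19 (95% interval −0.32 to −0.054, limma adjusted p = 0.0728). *EMB*, which encodes the MCT2 chaperone embigin, had a log2 fold change of 0.11 (limma adjusted p = 0.658) and *NPTN* of −0.15 (limma adjusted p = 0.106). So 0 of 3 chaperones passed. An unadjusted limma p below 0.05 was seen in 2 of them. That count is a description, since the share of all tested genes at 0.05 is not given here.
Of 22 lactate and pyruvate genes 19 were tested and 1 passed. *LDHA*, the lactate dehydrogenase subunit that favors lactate formation, had 78884, 75357, and 80113 normalized counts in control and 64295, 78452, and 94195 in KO clones 1 to 3, with a log2 fold change of −0.0011 (95% interval −0.31 to 0.31). *LDHB*, the gene of the other main subunit, was listed at 0 in all 6 libraries. The gene that passed was *PDK3*, a pyruvate dehydrogenase kinase that restrains the entry of pyruvate into the citric acid cycle, with 802 ± 31.6 in control and 1539 ± 215 in KO cells (log2 fold change 0.93, limma adjusted p = 0.00249). *PDHA1*, a subunit gene of the enzyme it restrains, had a log2 fold change of 0.39 (adjusted p = 0.00545), under the cut-off. Both lie on the X chromosome, where the nearest genes of *PDK3* had median log2 differences of 0.37, 0.26, and 0.44 and those of *PDHA1* of 0.48, 0.27, and 0.41 in the clones. With regional medians removed, the values were 0.58 for *PDK3*, which still passed, and 0.0049 for *PDHA1*.

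**Figure D5:**
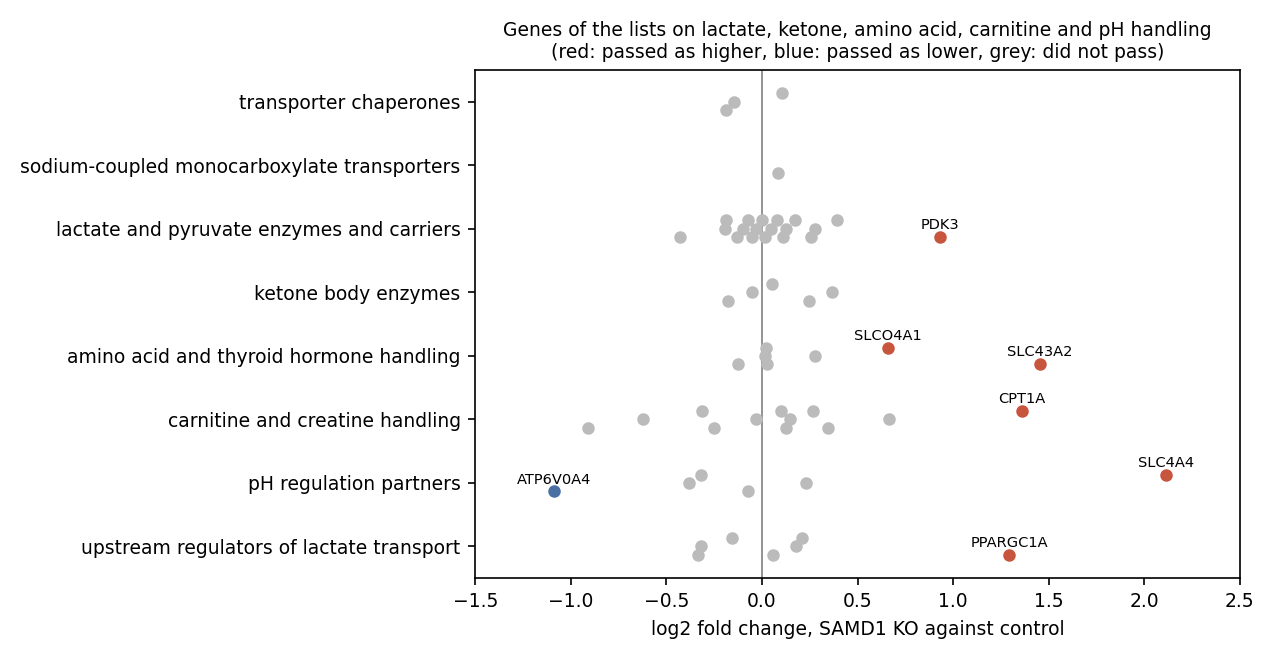
Log2 fold change of the 60 tested genes of the 8 lists, 1 row per list, with genes that passed as higher in red, as lower in blue and the others in grey. Most points lie near 0, with *SLC4A4* at 2.12 and *ATP6V0A4* at −1.09 as the extremes.

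Among the genes for handling acid, *SLC4A4*, a sodium bicarbonate cotransporter gene, had 119, 102, and 113 normalized counts in control and 483, 492, and 480.3 in the KO clones. The clones were nearly equal and all far above the controls (log2 fold change 2.12, standard error 0.11, limma adjusted p = 0.000177). *ATP6V0A4*, a proton pump subunit gene, fell from 632 ± 46.5 to 309 ± 104 (log2 fold change −1.09, adjusted p = 0.0261), with an adjusted p of up to 0.115 when 1 library was left out, and without control replicate 2 it did not pass.
Of 12 tested genes for carnitine and creatine, *CPT1A*, the enzyme that commits fatty acids to mitochondrial oxidation, passed as higher, from 1530 ± 55.7 to 3950 ± 523 normalized counts (log2 fold change 1.36, limma adjusted p = 0.000502). The creatine transporter gene *SLC6A8* had a log2 fold change of 0.67 (adjusted p = 0.081) and did not pass. For amino acids and thyroid hormone 2 of 7 tested genes passed, the organic anion transporter gene *SLCO4A1* (11452 ± 305 to 18144 ± 1907) and *SLC43A2*, a neutral amino acid transporter gene (21.5 ± 4.88 to 59.4 ± 0.98).
Of the ketone body genes 0 of 5 tested passed by limma. At an unadjusted limma p below 0.05 there was 1, again a description without the share of all tested genes. *BDH2*, a hydroxybutyrate dehydrogenase gene, had a log2 fold change of 0.25 (adjusted p = 0.347). Among upstream regulators 1 of 7 passed, *PPARGC1A*, a coactivator of oxidative metabolism, at 7.30 ± 1.24 and 19.9 ± 6.14 normalized counts (adjusted p = 0.0519). Its control mean was under the filter of 10, so it was tested only because it was high in KO cells, and its call supports nothing about the list. It passed in 1 of 6 fits that left out 1 library. *HIF1A* had a log2 fold change of −0.16 (adjusted p = 0.0921) and did not pass. The single tested sodium-coupled transporter gene, *SLC5A12*, had a log2 fold change of 0.083 (adjusted p = 0.873).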

How the data were processed

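RNA-seq of 3 control and 3 SAMD1 KO libraries was analysed. Library preparation used the TruSeq Stranded mRNA kit. The authors aligned reads to the GenCode human transcriptome with RNA-STAR, and the submitters' processing notes name featureCounts, DESeq2 and hg38. The deposited signal is a normalized count, a gene's reads divided by 1 size factor per library (0.873 to 1.16). In each library 100% of values were whole multiples of a step (within 0.01 reads), so reads were recovered. A second deposited table holds the authors' own DESeq2 comparison (fold changes and p-values) and was not used. Sample columns left unused numbered 0.

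Expression was compared with limma 3.58.1 (lmFit and eBayes with trend, R 4.3.3) on normalized counts after addition of 1 and log2 transformation, in the 12773 genes whose mean was 10 or more, with the study's cut-off (log2 fold change beyond 0.5, unadjusted p below 0.01). Tests were two-sided, with Benjamini-Hochberg adjustment across these genes. Replicates are separate KO clones and control replicates of unstated origin, so for the controls the spread may be technical. Positions and canonical transcript lengths are from GENCODE 44 (GRCh38), found for 98.5% of tested genes, and promoters from RefSeq (GRCh38.p14). Alternatives used other pseudocounts, filters and scalings, edgeR 4.0.16 and DESeq2 1.42.0 on the recovered reads, a replicate block, regional medians and each library left out. The fits were tested on simulated data.

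The members and lists were chosen with earlier results of these data known. The genes named are the members, other SLC16 genes, *SAMD1*, the markers, in each list the genes that passed or else the 2 with the smallest p, *BSG*, *EMB*, *LDHA*, *LDHB*, the 5 genes most like *SLC16A14* and its direct neighbors. *ARSG*, *CSNK1D*, *PDHA1*, *SLC6A8*, *HIF1A*, *LAMTOR5-AS1*, *PCDH7*, *GUCY1A1*, *BMP2*, *PID1*, *C2orf72* and *ITM2C* were added after their values were seen. Some genes that this rule names are not reported here. Python 3.11.15 was used for the other steps.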

Additional observations from a re-analysis of the deposited data

How the results depend on the processing

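Of the 9 members with a test, 1 passed as higher and 0 as lower under every alternative run but 1. Without KO clone 1, 2 passed as higher, which brought in *SLC16A9* at 0.71 (1 to 2 over the fits without 1 library). With the filter at a mean of 50 or more, *SLC16A4* was not tested. The log2 fold change of *SLC16A14* stayed between 3.02 and 3.36. Signs turned in members whose change was near 0: *SLC16A3* ranged from −0.25 to 0.20 when 1 library was left out and was positive without KO clone 2, *SLC16A10* ranged from −0.15 to 0.12 and was positive without control replicate 3 (0.0033) or KO clone 1 and with regional medians removed (0.0070), and *SLC16A13* ranged from −0.0027 to 0.20 and was negative without KO clone 2. Of the pathway genes, the number that passed as lower ranged from 0 without control replicate 2 to 2 without KO clone 1 or 3, against 1 with all libraries. Same-numbered control and KO libraries correlated in their deviations at 0.039, 0.13 and 0.032, so the numbers were not taken to pair the samples. With the replicate number as a block, 1 member passed as higher and 0 as lower, and over all genes 725 passed as higher and 259 as lower, against 737 and 266 without it. Control replicate 1 and 2 correlated best with their own number, control replicate 3 with KO clone 1 (0.036). Depth limits *SLC16A4*, with 6 to 18 reads in a library, most.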
